A study of Mus musculus with 12 samples.

Results

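The comparison set the inflamed ileum of TNFdARE mice against their inflamed synovium, the lining tissue of the joint. Its members are the 6 TNFdARE libraries of the 12 libraries in the study, 3 from ileum and 3 from synovium, chosen by genotype label alone, and every gene of the count table was considered. Of 46603 genes, 16193 had enough counts in these 6 libraries to be tested. The question is how the absolute levels of immune cells, cytokines and tissue-destroying enzymes differ between the diseased sites of 1 mouse model. In the TNFdARE strain, the Tnf mRNA lacks its AU-rich element, a sequence that keeps the transcript short-lived and poorly translated. The other 6 libraries came from ileum and synovium of WT littermates, and they served here only to show which tissue differences are those of healthy tissue. The groups were thus TNFdARE ileum, TNFdARE synovium, WT ileum and WT synovium, with 3 biological replicates each, and no treatment is named. Age and sex are not labelled, nor is it stated whether a mouse gave both tissues, and p-values measure the spread between these libraries. Genes outside the naming rule given with the methods were chosen after their values were seen.

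Excess TNF acts through the receptors TNFR1 and TNFR2 and the transcription factor NF-kB on stromal, endothelial and epithelial cells, which answer with chemokines, adhesion molecules and proteases. In the terminal ileum this gives an inflammation resembling Crohn's disease, with lymphocytes and plasma cells in the mucosa. In the joint, synovial fibroblasts take up an invasive state and, with macrophages and osteoclasts, break down cartilage and bone. Both diseases occur together in spondyloarthritis.

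Levels are given as CPM, a gene's counts relative to the library total as scaled by TMM over the 6 libraries, which compare 1 gene between libraries. Genes are compared with each other only by RPKM, the CPM per kilobase of exon. Fold changes are log2 values of ileum minus synovium with their standard error (SE), so positive values are higher in ileum. A gene was called when its adjusted p from edgeR was under 0.05. Library totals ran from 14267834 to 16224402 counts, and 3 counts, the limit a count of 0 allows, correspond to between 0.185 and 0.21 CPM before scaling.

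Defining markers placed each library with its labelled tissue. All 17 tested genes of absorptive enterocytes were called higher in ileum, with a median log2 fold change of 13.63, as were all 11 goblet cell genes and all 13 Paneth cell genes. Fabp6, the bile acid carrier of ileal enterocytes, held 87693 counts in the 3 ileum libraries and 3 in synovium, a ratio of count shares of 32120 with a 95% interval from 10990 to 155800 for counting error only. Prg4, which encodes the joint lubricant lubricin (GRCm38 chromosome 1, 150449412 to 150466165), lay at 3834, 4210 and 3564 CPM in synovium replicates 1 to 3. In ileum Prg4 lay at 0.963, 0.358 and 0.214 CPM, a log2 fold change of -12.83 ± 0.46 (adjusted p = 5.69e-06). All 16 matrix collagen and fibroblast genes were called higher in synovium. So were 13 of 16 genes of the synovial lining and sublining and 12 of 13 endothelial and lymphatic genes.

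The synovium libraries also held transcripts of cartilage, bone, muscle and marrow. The cartilage and bone list summed to 3678, 5199 and 4487 CPM in synovium and to 41.1 to 53.9 CPM in ileum. Of its 15 genes, 14 were called higher in synovium. Col2a1 had 17041 counts in synovium and 0 in ileum, and Bglap had 7055 and 2. The part of cartilage and bone RNA in the protease and osteoclast values was not tested. The skeletal muscle list summed to 10430, 5644 and 2564 CPM in synovium replicates 1, 2 and 3 against 389 to 499.9 CPM in ileum, and 13 of its 14 genes were called higher in synovium. The erythroid and bone marrow precursor list summed to 304.9, 1167 and 599.9 CPM in synovium and to 10.4 to 10.53 CPM in ileum, and all 10 tested genes were called higher in synovium. Mpo, a marrow precursor gene, had 0 counts in ileum and 11794 in synovium. In bulk tissue, fewer cells of a type and less RNA per cell cannot be told apart.

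Most genes differed between the inflamed tissues. Of the 16193 genes tested, 10025 (61.9%) were called: 5034 (31.1%) were higher in ileum and 4991 (30.8%) higher in synovium. A difference of at least 4-fold was called in 1783 genes (11.0%) in favour of ileum and in 1634 (10.1%) in favour of synovium. The 95% interval of the fold change lay within 2-fold either way for 6979 genes (43.1%), and the CPM values did not overlap between groups for 11476 (70.9%). Among the 398 tested genes of the immune and mediator lists, 132 were called higher in ileum, 134 higher in synovium and 132 did not pass. Their median absolute log2 fold change was 1.60, against 0.68 for all genes tested. Of these 398 genes, 37 (9.30%) had an interval within 2-fold. Their intervals were also wider, with a median width of 1.98 on the log2 scale against 0.84 over all genes. The plot of the list members shows plasma cell, IL-17, T cell and interferon lists on the ileum side, and neutrophil, protease, osteoclast and mast cell lists on the synovium side.

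**Figure D1:**
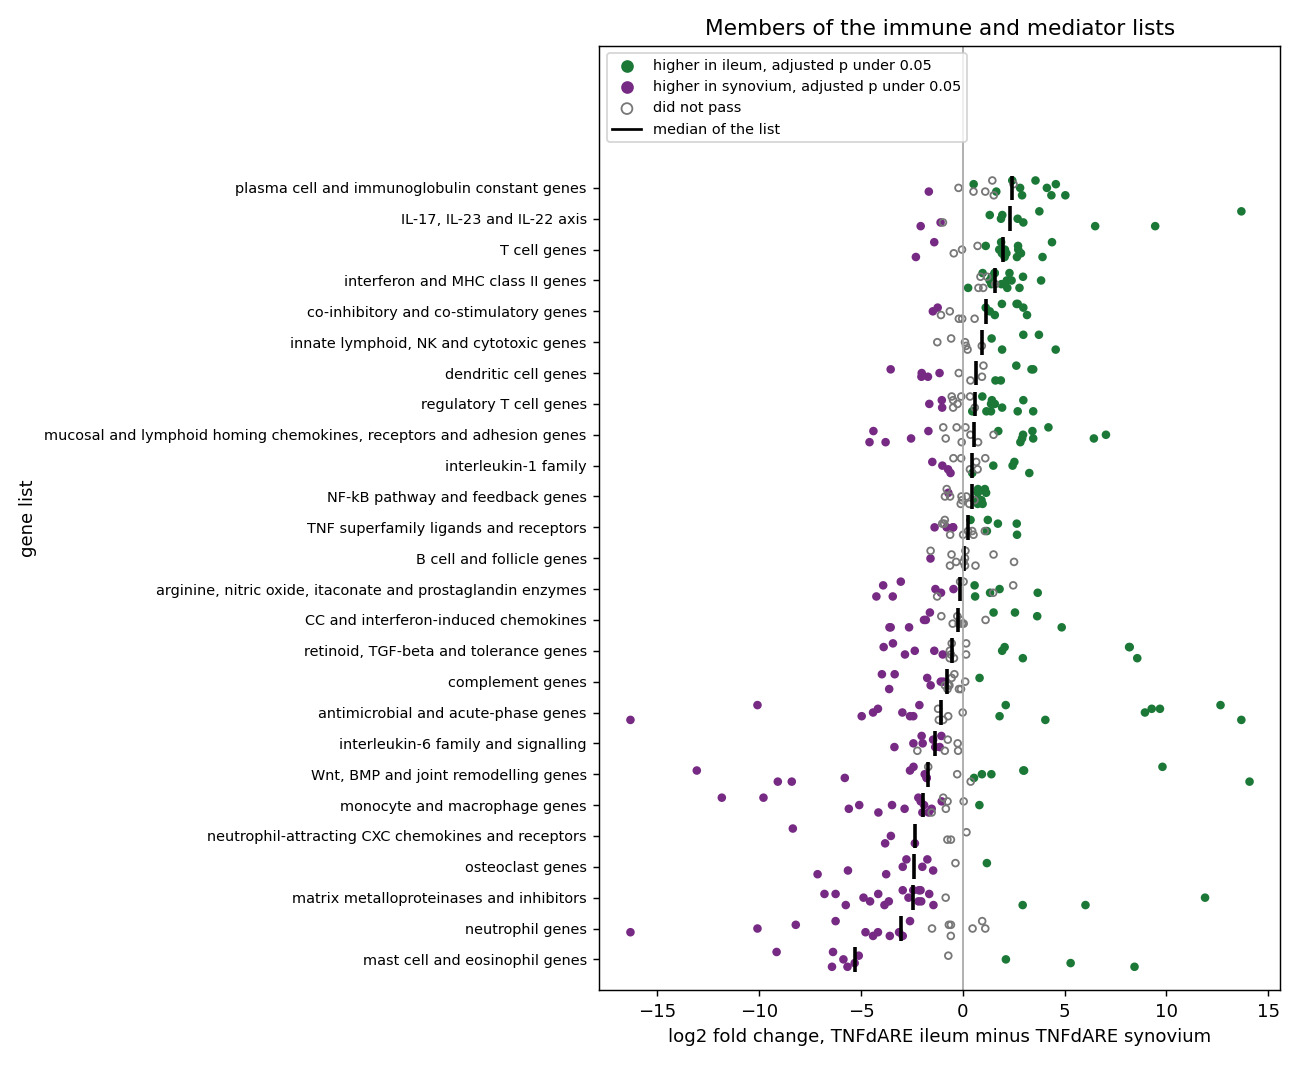
Each point is a tested gene of an immune or mediator list, placed by its log2 fold change (TNFdARE ileum minus TNFdARE synovium); filled points passed the test, open points did not, and black bars are list medians. List medians run from -5.31 for mast cell and eosinophil genes to 2.43 for plasma cell and immunoglobulin constant genes.

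Tnf itself did not pass the test between the inflamed tissues. Tnf (GRCm38 chromosome 17, 35199381 to 35202007) lay at 83.7, 17.5 and 48.1 CPM in ileum replicates 1 to 3 and at 40.2, 33.8 and 29.6 CPM in synovium. The ileum values spanned the synovium values on both sides, and the log2 fold change was 0.53 ± 0.51 (adjusted p = 0.407, 95% interval from -0.72 to 1.77). Without ileum replicate 2 Tnf was called higher in ileum at 0.93 (adjusted p = 0.0221). The estimate was -0.05 without ileum replicate 1. Il1b, encoding the inflammasome-processed cytokine IL-1 beta, also overlapped and lay at 157.5, 24.1 and 97.8 CPM in ileum and at 49.4, 47.8 and 71.4 CPM in synovium. Its log2 fold change was 0.73 ± 0.61 (adjusted p = 0.339), and 1.19 (adjusted p = 0.0106) without ileum replicate 2.

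Of the receptors that bind TNF, Tnfrsf1a was called higher in synovium and Tnfrsf1b did not pass. Tnfrsf1a, encoding TNFR1, lay at 175, 157 and 178 CPM in ileum and at 254, 214 and 236 CPM in synovium without overlap, a log2 fold change of -0.47 ± 0.10 (adjusted p = 0.00562). Tnfrsf1b, encoding TNFR2, lay at 190.5, 45.3 and 102 CPM in ileum and 234, 192 and 212 CPM in synovium, and its log2 fold change of -0.92 ± 0.47 did not pass (adjusted p = 0.139), although it did without ileum replicate 1 (-1.5, adjusted p = 0.0112). Tnfsf10, encoding the death ligand TRAIL, was higher in every ileum library, at 166, 85.2 and 137 CPM against 22.4, 17.7 and 21.2 CPM (log2 fold change 2.67 ± 0.26, adjusted p = 0.000273). Of 19 tested TNF superfamily ligands and receptors, 6 were called higher in ileum, 4 higher in synovium and 9 did not pass. Without ileum replicate 2, 11 were called higher in ileum. Among all genes tested, 31.1% were called higher in ileum and 30.8% higher in synovium.

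Of 18 genes of the NF-kB pathway, 8 were called higher in ileum, 1 higher in synovium and 9 did not pass. Of all genes tested, 61.9% were called, 31.1% higher in ileum and 30.8% higher in synovium. The count called higher in ileum was 5 without synovium replicate 3, and the count called higher in synovium ran from 0 to 3 over the fits that left out 1 library. Relb, a subunit of the noncanonical pathway, lay at 154, 115 and 147 CPM in ileum and at 69.1, 65.6 and 61.3 CPM in synovium, a log2 fold change of 1.09 ± 0.13 (adjusted p = 0.000464). Nfkbia, the inhibitor that NF-kB induces against itself, lay at 291, 168 and 245 CPM in ileum and 194, 187 and 182 CPM in synovium, overlapping ranges with a log2 fold change of 0.32 ± 0.20 (adjusted p = 0.198). Without ileum replicate 2 Nfkbia was called (0.51, adjusted p = 0.00556). Tnfaip3, encoding the feedback enzyme A20, was called higher in ileum at 0.97 ± 0.29 (adjusted p = 0.0251), and the call was lost without ileum replicate 3 or any 1 of synovium replicates 1, 2 and 3, with adjusted p between 0.058 and 0.0795.

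The promoters of 5 genes are shown because the genes carry a match to an inflammatory factor's motif and took different sides: Ifit1, Cxcl10 and Irf1 were called higher in ileum, Cxcl1 higher in synovium, and Nfkbia did not pass. Each run is the 250 bases before the RefSeq start (GRCm38.p6), 5′ to 3′ on the gene's strand. Capitals mark every match to 3 motifs, searched on both strands: the interferon-stimulated response element GAAANNGAAA, the gamma-activated site TTCNNNGAA and the NF-kB consensus. Ifit1 (chr19:34640639-34640888, plus strand) held 2 matches to the interferon-stimulated response element. Cxcl10 (chr5:92348890-92349139, minus strand) held 1 match to that element, nearest its 5′ end, and 3 to the NF-kB consensus, of which the last 2 overlap. Irf1 (chr11:53769764-53770013, plus strand) held 1 gamma-activated site and, nearer the start, 1 NF-kB match. Cxcl1 (chr5:90890995-90891244, plus strand) held 2 overlapping NF-kB matches and Nfkbia (chr12:55492648-55492897, minus strand) held 1. The genes were picked for a motif match and for taking different sides, so the NF-kB consensus on both sides is not a separate result.
Ifit1: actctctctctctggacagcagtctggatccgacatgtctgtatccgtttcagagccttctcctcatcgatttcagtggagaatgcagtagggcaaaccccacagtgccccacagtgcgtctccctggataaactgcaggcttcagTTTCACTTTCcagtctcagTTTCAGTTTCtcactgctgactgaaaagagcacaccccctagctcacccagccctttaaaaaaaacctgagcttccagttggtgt
Cxcl10: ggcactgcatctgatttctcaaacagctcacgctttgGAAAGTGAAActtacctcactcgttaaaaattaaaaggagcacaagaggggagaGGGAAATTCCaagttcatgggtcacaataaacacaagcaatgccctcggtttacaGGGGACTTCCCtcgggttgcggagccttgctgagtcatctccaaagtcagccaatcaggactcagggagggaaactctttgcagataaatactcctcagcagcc
Irf1: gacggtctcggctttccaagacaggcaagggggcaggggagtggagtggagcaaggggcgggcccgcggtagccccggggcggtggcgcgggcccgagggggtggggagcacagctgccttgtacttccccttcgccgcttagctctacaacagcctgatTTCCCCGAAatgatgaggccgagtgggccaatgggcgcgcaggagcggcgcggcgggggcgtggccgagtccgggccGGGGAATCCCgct
Cxcl1: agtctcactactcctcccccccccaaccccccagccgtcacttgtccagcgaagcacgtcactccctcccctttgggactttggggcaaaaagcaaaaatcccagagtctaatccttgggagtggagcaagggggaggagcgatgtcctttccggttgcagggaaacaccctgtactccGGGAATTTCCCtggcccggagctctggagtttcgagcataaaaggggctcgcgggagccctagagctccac
Nfkbia: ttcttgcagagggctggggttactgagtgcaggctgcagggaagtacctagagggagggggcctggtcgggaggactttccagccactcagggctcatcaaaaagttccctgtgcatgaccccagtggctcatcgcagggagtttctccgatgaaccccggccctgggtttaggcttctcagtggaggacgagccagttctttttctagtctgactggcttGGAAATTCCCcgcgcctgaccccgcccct

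Over the whole promoter table of 27025 genes, 3.46% held the interferon-stimulated response element, 8.13% the gamma-activated site and 8.23% the NF-kB consensus. The NF-kB pathway list matched 15 promoters, of which 9 held the NF-kB consensus. The interferon and MHC class II list matched 13 promoters, of which 5 held the interferon-stimulated response element. Of genes called at least 4-fold higher in ileum, 1173 matched a promoter and 5.97% of those held the interferon-stimulated response element, against 3.31% of 1177 genes called at least 4-fold higher in synovium and 3.40% of 12020 tested genes with a promoter. The NF-kB consensus was held by 11.5% of the ileum group and 12.8% of the synovium group, against 10.8% of the tested genes with a promoter. These matches are descriptions of letters in a window, and no binding was measured.

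Chemokines, the secreted proteins that direct leukocyte migration, took both sides. Ccl25, Ccl28, Ccl20, Cxcl9 and Cxcl10 were called higher in ileum, and Cxcl12, Cxcl14, Ccl2, Ccl7, Ccl17, Cxcl1 and Cxcl3 were called higher in synovium. Ccl25, which draws CCR9-positive lymphocytes into the small intestine, lay at 189.6, 255 and 226 CPM in ileum and at 2.70, 2.16 and 2.85 CPM in synovium (log2 fold change 6.44 ± 0.18, adjusted p = 3.27e-06). Ccl28, a mucosal chemokine for IgA plasma cells, lay at 62.1, 126 and 86.8 CPM against 0.251, 0.779 and 1.03 CPM (7.03 ± 0.48, adjusted p = 5.99e-05). The groups of both genes were far apart. Ccl20, the CCR6 ligand, was higher in every ileum library at 34.3, 13.2 and 19.8 CPM against 4.33, 0.839 and 4.30 CPM (2.83 ± 0.64, adjusted p = 0.00907).

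Cxcl9 and Cxcl10, interferon-induced ligands of CXCR3, a chemokine receptor of T cells, were called higher in ileum. Cxcl9 lay at 144, 28.0 and 85.7 CPM in ileum and at 6.65, 6.89 and 6.91 CPM in synovium (log2 fold change 3.66 ± 0.60, adjusted p = 0.00231). Cxcl10 lay at 55.0, 14.8 and 35.0 CPM and at 5.40, 4.91 and 7.39 CPM (2.57 ± 0.49, adjusted p = 0.00449). In both, the ileum libraries differed among themselves severalfold, while the synovium libraries lay close together.

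Cxcl12, the stromal ligand of CXCR4 (GRCm38 chromosome 6, 117168535 to 117181367), lay at 98.8, 66.0 and 61.7 CPM in ileum and at 1459, 1787 and 1503 CPM in synovium, a log2 fold change of -4.39 ± 0.24 (adjusted p = 2.01e-05). Ccl2, the main monocyte attractant, lay at 47.3, 16.1 and 27.8 CPM against 207, 188 and 173 CPM (-2.64 ± 0.38, adjusted p = 0.00134). Ccl17, a ligand of CCR4, lay at 1.35, 2.72 and 4.57 CPM against 30.2, 45.3 and 24.7 CPM (-3.54 ± 0.46, adjusted p = 0.000906). No library of these genes crossed into the range of the other tissue. Ccl7 (-3.60 ± 0.36) and Cxcl14 (-3.79 ± 0.12) were called in the same direction.

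Among the ligands of the neutrophil receptor CXCR2, Cxcl1 lay at 14.9, 3.58 and 12.3 CPM in ileum and 66.8, 39.9 and 51.2 CPM in synovium (log2 fold change -2.35 ± 0.50, adjusted p = 0.00699), and Cxcl3 differed by -3.53 ± 0.54 on the log2 scale (adjusted p = 0.00176). Cxcl5 did not separate the tissues: 136, 34.3 and 131 CPM in ileum and 119.8, 35.7 and 109.8 CPM in synovium (0.18 ± 0.63, adjusted p = 0.819). In both tissues replicate 2 held the lowest Cxcl5 level. Of 7 tested neutrophil-attracting CXC chemokines and receptors, 4 were called higher in synovium and 3 did not pass. Among these 4, Ppbp had the largest difference (-8.35 ± 1.24, adjusted p = 0.00155 in edgeR). Ppbp lay at 6.84, 61.8 and 28.7 CPM in synovium, the same library order as the erythroid and marrow precursor list. The part of marrow RNA in the Ppbp call was not tested. Of 18 CC and interferon-induced chemokines, 4 were called higher in ileum, 6 higher in synovium and 8 did not pass, and their median of -0.23 became 0.02 without synovium replicate 1. All genes tested had 31.1% called higher in ileum and 30.8% higher in synovium.

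Several chemokines overlapped between the tissues. Cxcl13, the B cell attractant of lymphoid follicles, lay at 56.3, 16.7 and 26.8 CPM in ileum and 30.2, 23.9 and 37.1 CPM in synovium (log2 fold change 0.13 ± 0.44, adjusted p = 0.814). Cx3cl1, the membrane-bound ligand of CX3CR1, lay at 99.8, 124 and 129 CPM and at 143, 134 and 107 CPM (-0.12 ± 0.15, adjusted p = 0.492), and its 95% interval from -0.48 to 0.23 lay within 2-fold. Cxcl16, the ligand of CXCR6, had a log2 fold change of -0.04 ± 0.31.

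Per length, the 42 chemokine ligands summed to 596 RPKM in ileum and 1283 RPKM in synovium. In ileum the top ligand was Ccl6 at 127.7 ± 13.4 RPKM (SD, n = 3), followed by Cxcl16 at 54.9 ± 20.3 and Cxcl5 at 53.8 ± 30.7. In synovium it was Cxcl12 at 193.6 ± 21.8 RPKM, followed by Cxcl14 at 169 ± 21.1 and Ccl2 at 166 ± 14.6. Cxcl14 and Ccl2 differed by less than their SD, as did Cxcl16 and Cxcl5 in ileum. Cxcl12 stood at rank 16 in ileum and Ccl6 at rank 11 in synovium.

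Endothelial adhesion genes took both sides. Madcam1, the mucosal addressin that binds gut-homing integrin, lay at 36.4, 8.24 and 21.8 CPM in ileum and at 1.51, 3.83 and 3.15 CPM in synovium (log2 fold change 2.96 ± 0.62, adjusted p = 0.00641). Sele, encoding the TNF-induced endothelial E-selectin, lay at 2.18, 0.0716 and 1.07 CPM in ileum and 34.8, 20.6 and 26.1 CPM in synovium (-4.58 ± 0.73, adjusted p = 0.00203). Neither gene overlapped between the tissues. Of 22 homing and adhesion genes, 9 were called higher in ileum, 5 higher in synovium and 8 did not pass, and the list median of 0.56 became -0.22 without ileum replicate 1. The shares over all genes tested were 31.1% higher in ileum and 30.8% higher in synovium.

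**Figure D2:**
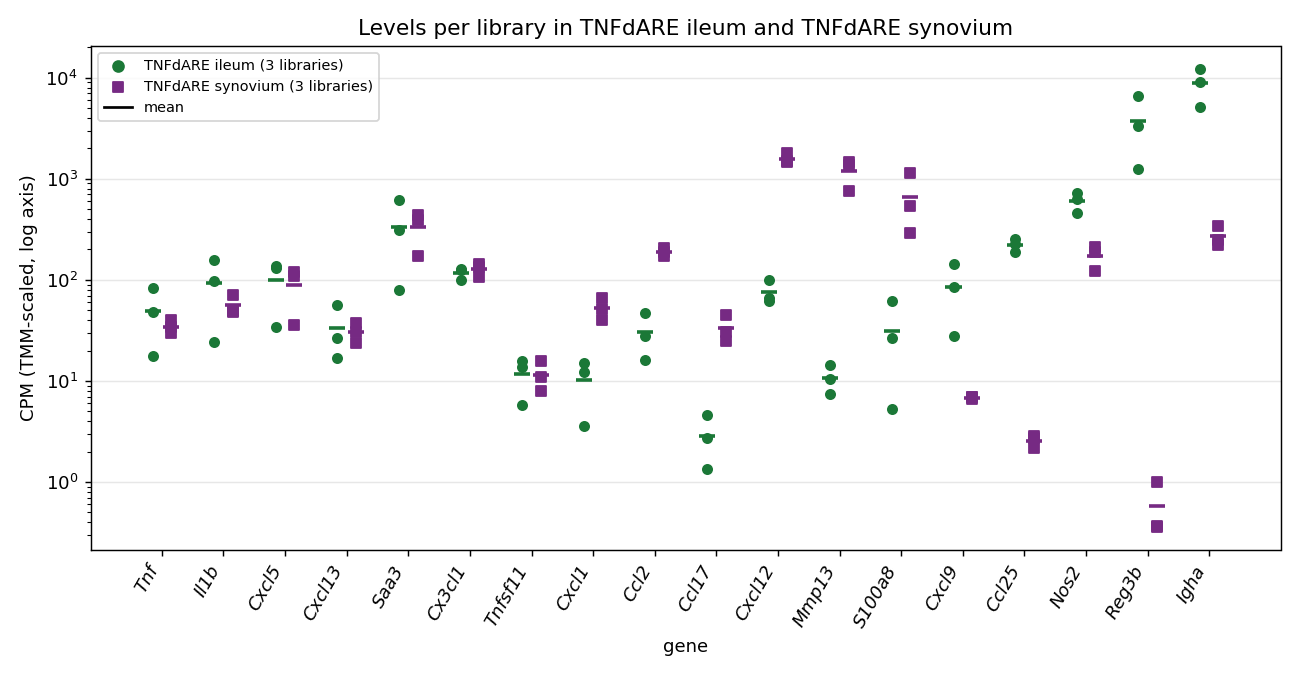
CPM per library on a log axis for 18 mediators and effectors in TNFdARE ileum (circles) and TNFdARE synovium (squares), with bars at the group means. Tnf, Il1b, Cxcl5, Cxcl13, Saa3, Cx3cl1 and Tnfsf11 overlap between the tissues, while the other 11 genes do not. Over all genes tested, 70.9% did not overlap.

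Neutrophil transcripts were higher in synovium. Of 18 neutrophil genes, 11 were called higher in synovium, 0 in ileum and 7 did not pass, with a median log2 fold change of -3.04. The shares over all genes tested were 30.8% higher in synovium and 31.1% higher in ileum. S100a8, encoding a subunit of calprotectin (GRCm38 chromosome 3, 90668978 to 90670035), lay at 61.1, 5.30 and 26.9 CPM in ileum and at 290.5, 1155 and 538 CPM in synovium, a log2 fold change of -4.41 ± 0.98 (adjusted p = 0.00825). Its partner S100a9 lay at 103, 9.53 and 49.5 CPM against 464, 1660 and 779.9 CPM (-4.17 ± 0.94, adjusted p = 0.009). The ileum libraries lay below all synovium libraries in both genes. Lcn2, encoding the iron-binding protein lipocalin-2, differed by -2.59 ± 0.79 on the log2 scale (adjusted p = 0.0275), and its call was lost without ileum replicate 3, synovium replicate 2 or synovium replicate 3 (adjusted p 0.0775, 0.0754 and 0.0554).

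Genes of precursors and of mature neutrophils differed in their values. Ngp, a granule gene of marrow precursors, had 0 counts in ileum and 32910 in synovium, at least 9983-fold higher against a floor of 3 counts over the group. Csf3r, the G-CSF receptor of mature neutrophils, did not separate the tissues: 242, 56.7 and 145.5 CPM in ileum and 72.3, 131.5 and 114 CPM in synovium (log2 fold change 0.48 ± 0.51, adjusted p = 0.446). Cxcr2, the chemokine receptor of mature neutrophils, lay at 33.7, 4.51 and 23.0 CPM and at 15.8, 45.7 and 30.2 CPM (-0.58 ± 0.71, adjusted p = 0.505). For 100 counts of Csf3r, ileum held 25.3, 9.34 and 18.5 counts of S100a8 and synovium 402, 879 and 471. An exact two-sided permutation test of this ratio, chosen after the values were seen, gave p = 0.1, the smallest that 3 against 3 libraries allow.

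Marrow genes moved with the neutrophil list in synovium. The summed level of neutrophil genes in synovium was 2340, 7350 and 3990 CPM, and the erythroid and marrow precursor list had the same order of libraries (304.9, 1167 and 599.9 CPM). In ileum the precursor list summed to 10.4 to 10.53 CPM while the neutrophil list ran from 196 to 869.7 CPM. The part of marrow RNA in the synovial neutrophil result was not tested.

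Macrophage genes were also mostly higher in synovium: 14 of 20 were called higher there, 1 in ileum and 5 did not pass. Their median log2 fold change was -1.94. All genes tested had 30.8% called higher in synovium and 31.1% higher in ileum. Mrc1, the mannose receptor of resident macrophages, lay at 45.5, 42.3 and 40.0 CPM in ileum and 332, 315 and 279 CPM in synovium (-2.86 ± 0.10, adjusted p = 5.58e-06). Vsig4, a complement receptor known from synovial lining macrophages, had 0 counts in ileum and 1449 in synovium, at least 439.5-fold higher. Of 11 tested mast cell and eosinophil genes, 7 were called higher in synovium and 3 in ileum. The connective tissue mast cell proteases Mcpt4, Cma1 and Cpa3 were called higher in synovium and the mucosal proteases Mcpt1 and Mcpt2 higher in ileum.

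T cell and plasma cell transcripts were higher in ileum. Of 18 T cell genes, 13 were called higher in ileum, 2 higher in synovium and 3 did not pass, with a median log2 fold change of 1.99. Among all genes tested, the shares were 31.1% higher in ileum and 30.8% higher in synovium. Cd8a, the co-receptor of cytotoxic and intraepithelial T cells, lay at 24.0, 7.02 and 20.3 CPM in ileum and 0.69, 0.779 and 0.969 CPM in synovium (4.38 ± 0.54, adjusted p = 0.000687). Cd4, the co-receptor of helper T cells, lay at 106, 30.5 and 67.9 CPM and at 37.0, 44.1 and 42.1 CPM (0.73 ± 0.41, adjusted p = 0.172), and it was called without ileum replicate 2 (1.08, adjusted p = 0.00438). The 2 genes higher in synovium were Trdc, the constant gene of the delta chain of the T cell receptor (-1.40 ± 0.33, adjusted p = 0.0101), and Thy1, which fibroblasts also express (-2.30 ± 0.34, adjusted p = 0.00149).

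Foxp3, the lineage factor of regulatory T cells (GRCm38 chromosome X, 7573644 to 7595245), lay at 9.51, 2.87 and 6.49 CPM in ileum and at 2.89, 2.64 and 1.70 CPM in synovium. Ileum replicate 2 fell inside the synovium range. The log2 fold change of 1.39 ± 0.47 was called (adjusted p = 0.0395). The call was lost without ileum replicate 1, ileum replicate 3 or any 1 of synovium replicates 1, 2 and 3, with adjusted p from 0.0729 to 0.117, and with the replicate number as a block (adjusted p = 0.062). Ctla4, an inhibitory receptor of regulatory T cells, did not overlap, at 8.16, 4.37 and 7.99 CPM in ileum and 1.57, 2.40 and 2.91 CPM in synovium (1.57 ± 0.35, adjusted p = 0.00759). Of 21 tested regulatory T cell genes, 11 were called higher in ileum, 3 higher in synovium and 7 did not pass. Of all genes tested, 61.9% were called, 31.1% higher in ileum and 30.8% higher in synovium. The list median was 0.59, and Nt5e was among the genes called higher in synovium (-1.64 ± 0.15, adjusted p = 0.00019).

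Foxp3 was also set against T cell transcripts. For 100 counts of Cd3d, Cd3e and Cd3g, the ileum libraries held 33.7, 21.6 and 19.6 counts of Foxp3 and the synovium libraries 93.9, 110 and 30.8. The groups overlapped, and an exact two-sided permutation test gave p = 0.2. The synovium ratios rest on 40 to 91 counts of Cd3 genes in a library. For 100 counts of Cd4 there were 25.2 ± 4.08 counts of Cd8a in ileum and 1.98 ± 0.285 in synovium (SD, n = 3; exact permutation p = 0.1, the smallest possible). Synovium replicates 1 to 3 held 590, 736 and 695 counts of Cd4 and 49, 40 and 91 counts of the Cd3 genes. Ileum replicates 1 to 3 held 1644, 426 and 952 counts of Cd4 and 439, 185 and 465 of the Cd3 genes. Which cells the Cd4 counts came from was not tested. Both the Foxp3 and the Cd8a ratio were chosen after the data were seen.

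All genes tested had 31.1% called higher in ileum and 30.8% called higher in synovium. Of 17 plasma cell and immunoglobulin constant genes, 10 were called higher in ileum and 1 higher in synovium, with a median log2 fold change of 2.43. The median was 1.44 without ileum replicate 1, where 2 genes were called higher in synovium, and it was 1.61 with a replicate block and 1.62 with limma-voom. No gene was called higher in synovium with the block, with no filter or in the other 5 fits that left out 1 library. Igha, the constant gene of IgA (GRCm38 chromosome 12, 113254830 to 113260236), averaged 8860 ± 3561 CPM in ileum and 269 ± 63.5 CPM in synovium (SD, n = 3), a log2 fold change of 5.04 ± 0.41 (adjusted p = 0.000113). Jchain, which joins IgA into dimers, differed by 4.35 ± 0.39 (adjusted p = 0.000177). Igha made 94.1% ± 4.62 of the immunoglobulin heavy constant counts in ileum and 38.0% ± 5.22 in synovium. Ighm and Ighd together made 0.858% ± 0.433 and 36.7% ± 9.03, and the IgG genes made 5.03% ± 4.22 and 25.3% ± 8.49. No pair of groups overlapped in these 3 shares (exact permutation p = 0.1 each, the smallest possible).

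B cell genes varied widely between ileum libraries. Ms4a1, encoding CD20, lay at 29.5, 0.716 and 7.06 CPM in ileum and at 5.52, 16.0 and 15.1 CPM in synovium (log2 fold change 0.03 ± 1.06, adjusted p = 0.982). Cr2, the complement receptor of follicular B cells and follicular dendritic cells, lay at 26.1, 1.5 and 5.21 CPM and at 1.38, 1.32 and 3.03 CPM (2.52 ± 1.03, adjusted p = 0.0746), and it was called without ileum replicate 2 (3.04, adjusted p = 0.0163). Of 12 B cell and follicle genes, 1 was called higher in synovium and 11 did not pass, while 61.9% of all genes tested were called. The list median of 0.07 was -1.42 without ileum replicate 1, where 4 genes were called higher in synovium, and -0.30 without synovium replicate 1.

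The IL-17, IL-23 and IL-22 axis was on the ileum side, with 9 of 12 tested genes called higher in ileum and 2 higher in synovium. With no filter, 11 of 18 were called higher in ileum and 2 in synovium. Il17a and Il22ra1 had enough counts to be tested only in ileum, and Il22ra1 held 4586 counts there and 0 in synovium. Over all genes tested, 31.1% were called higher in ileum and 30.8% in synovium. Il17a, encoding the cytokine IL-17A, held 113 counts in the ileum libraries and 1 in synovium, a ratio of count shares of 124 with a 95% interval from 21.8 to 4948. In the interferon and MHC class II list, 16 of 21 tested members were called higher in ileum and 5 did not pass, with log2 fold changes from 0.26 to 3.85. The count was 10 without ileum replicate 3, 9 without synovium replicate 1 and 10 without synovium replicate 3, while without ileum replicate 2 all 22 genes then tested were called. Irf1, an interferon-induced transcription factor, lay at 493, 263 and 369.7 CPM in ileum and 71.0, 77.9 and 64.7 CPM in synovium (2.40 ± 0.24, adjusted p = 0.000289). Ifit1, an antiviral effector, lay at 104, 42.8 and 102 CPM against 4.08, 4.85 and 8.30 CPM (3.85 ± 0.45, adjusted p = 0.000585). Their promoters held different motifs, as given above, and no binding was measured.

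The IL-6 family was on the synovium side: of 13 tested genes 8 were called higher there, 0 in ileum and 5 did not pass. The shares over all genes tested were 30.8% higher in synovium and 31.1% in ileum. Il6st, the shared signalling receptor gp130, lay at 238, 185 and 215 CPM in ileum and 921, 758 and 821 CPM in synovium (log2 fold change -1.97 ± 0.14, adjusted p = 5.47e-05). Il6 itself was low, at 0.835, 0.143 and 0.571 CPM and at 1.82, 0.539 and 5.09 CPM, and overlapped (-2.23 ± 0.93, adjusted p = 0.0781), and it was called without synovium replicate 2 (-2.72, adjusted p = 0.027). Il10, the anti-inflammatory cytokine, lay between 0.214 and 1.21 CPM over the 6 libraries and did not pass (-0.54 ± 0.58, adjusted p = 0.446). Il1r1, the signalling receptor of IL-1, was higher in synovium at 122, 92.4 and 118 CPM against 38.1, 34.8 and 45.2 CPM (-1.5 ± 0.15, adjusted p = 0.000264).

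Antimicrobial genes went both ways, with 8 of 22 called higher in ileum, 9 higher in synovium and 5 not passing. Over all genes tested, the shares called were 31.1% and 30.8%. The epithelial lectin Reg3b lay at 1264, 6652 and 3339 CPM in ileum and at 1.00, 0.359 and 0.364 CPM in synovium (log2 fold change 12.66 ± 0.99, adjusted p = 0.000107), and Reg3g differed by 13.68 ± 0.56. Saa1, an acute-phase protein, lay at 77.2, 185 and 133 CPM against 11.2, 3.59 and 8.97 CPM (4.06 ± 0.52, adjusted p = 0.000802). Its paralog Saa3 overlapped fully, at 620.1, 79.2 and 308 CPM and at 442, 172 and 395 CPM (-0.00 ± 0.72, adjusted p = 0.999), with a 95% interval from -1.75 to 1.74.

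Enzymes that use arginine also took opposite sides. Nos2, the inducible nitric oxide synthase, lay at 638, 456 and 727 CPM in ileum and 209.6, 189 and 121 CPM in synovium (log2 fold change 1.81 ± 0.26, adjusted p = 0.00142). Arg1, arginase 1, lay at 0.514, 1.29 and 1.5 CPM and at 19.5, 5.21 and 11.1 CPM (-3.44 ± 0.62, adjusted p = 0.00346). Neither overlapped. Acod1, which makes the macrophage metabolite itaconate, ran from 5.16 to 137 CPM in ileum and from 8.33 to 13.1 CPM in synovium and did not pass (2.48 ± 1.03, adjusted p = 0.0766), but it did without ileum replicate 2 (3.02, adjusted p = 0.00575). The lysozyme genes Lyz1 and Lyz2 are near-identical and their reads may have been divided between them, so their values are uncertain: Lyz1 differed by 2.11 ± 0.55 on the log2 scale (adjusted p = 0.0159), a call lost without synovium replicate 2 or 3 (adjusted p 0.0578 and 0.0558), and Lyz2 had an estimate of -0.96 ± 0.59 (adjusted p = 0.204) and was called without ileum replicate 1 (-1.64, adjusted p = 0.0319).

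Proteases that remodel matrix were higher in synovium. Of 21 metalloproteinases and inhibitors, 17 were called higher in synovium, 3 in ileum and 1 did not pass, beside 30.8% and 31.1% of all genes tested called higher in synovium and ileum. Healthy tissue held this difference too: in the fit of 12 libraries the list median was -2.70 in WT and -2.39 in TNFdARE. The interaction with genotype was called above 0 in 2 of the 21 genes and below 0 in 0. Mmp13, the main collagenase of mouse joints (GRCm38 chromosome 9, 7272514 to 7283331), lay at 7.45, 10.5 and 14.4 CPM in ileum and at 1376, 750.6 and 1462 CPM in synovium (log2 fold change -6.79 ± 0.42, adjusted p = 4.05e-05). Mmp3, stromelysin 1, lay at 159, 23.1 and 63.6 CPM against 1547, 577 and 925 CPM (-3.63 ± 0.77, adjusted p = 0.00704). Mmp9, a gelatinase of neutrophils and osteoclasts, lay at 149, 86.2 and 106 CPM against 592, 1046 and 995.6 CPM (-2.95 ± 0.31, adjusted p = 0.000348). None overlapped, and the inhibitor Timp1 was higher in synovium too (-4.88 ± 0.57).

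The 3 proteases on the ileum side were Mmp7, Mmp10 and Mmp15. Mmp7, the Paneth cell protease that activates defensins in mice, held 8009 counts in ileum and 2 in synovium, a ratio of count shares of 4401 with a 95% interval from 1218 to 36340. Mmp10, stromelysin 2, lay at 84.2, 43.2 and 122 CPM in ileum and 1.63, 0.839 and 1.33 CPM in synovium (log2 fold change 6.03 ± 0.50, adjusted p = 0.000137).

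RANK ligand drives osteoclast formation, RANK is its receptor and osteoprotegerin its decoy. Tnfsf11, encoding RANK ligand, overlapped between gut and joint and lay at 15.7, 5.73 and 13.6 CPM in ileum and at 10.9, 7.91 and 15.9 CPM in synovium (log2 fold change 0.02 ± 0.43, adjusted p = 0.974, 95% interval from -1.01 to 1.05). RANK, encoded by Tnfrsf11a, was higher in ileum at 107, 93.6 and 114 CPM against 45.4, 44.0 and 49.0 CPM (1.19 ± 0.10, adjusted p = 0.000116). Osteoprotegerin, encoded by Tnfrsf11b, was higher in synovium at 32.1, 44.6 and 30.1 CPM against 15.7, 11.9 and 13.3 CPM (-1.38 ± 0.19, adjusted p = 0.00102). Of 10 tested osteoclast genes, 8 were called higher in synovium and 1, Tnfrsf11a, higher in ileum. Among all genes tested, 30.8% were called higher in synovium and 31.1% in ileum. Ctsk, the collagen-degrading protease of osteoclasts and also of synovial fibroblasts, averaged 6.62 ± 0.841 CPM in ileum and 931 ± 117 CPM in synovium (SD, n = 3), a log2 fold change of -7.13 ± 0.18 (adjusted p = 2.67e-06). Scaled over all 12 libraries, Ctsk stood at 781 ± 94.1 CPM in WT synovium and 892 ± 110 in TNFdARE synovium.

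The ileum libraries were less alike than the synovium libraries. The median SD of log2 CPM over genes was 0.18 in ileum and 0.14 in synovium, and 58.9% of genes had the larger SD in ileum. Of the 42 gene lists, 34 had the larger median SD in ileum, and ileum replicate 2 was the lowest ileum library in 27. Its interferon, T cell, neutrophil and B cell genes were low and its enterocyte and Paneth cell genes high: the interferon and MHC class II list summed to 12040, 3660 and 8985 CPM in ileum replicates 1 to 3, and the absorptive enterocyte list to 13000, 21460 and 17270 CPM. In synovium the interferon list ran only from 2939 to 3093 CPM. Synovium libraries differed in muscle, marrow and neutrophil genes instead.

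**Figure D3:**
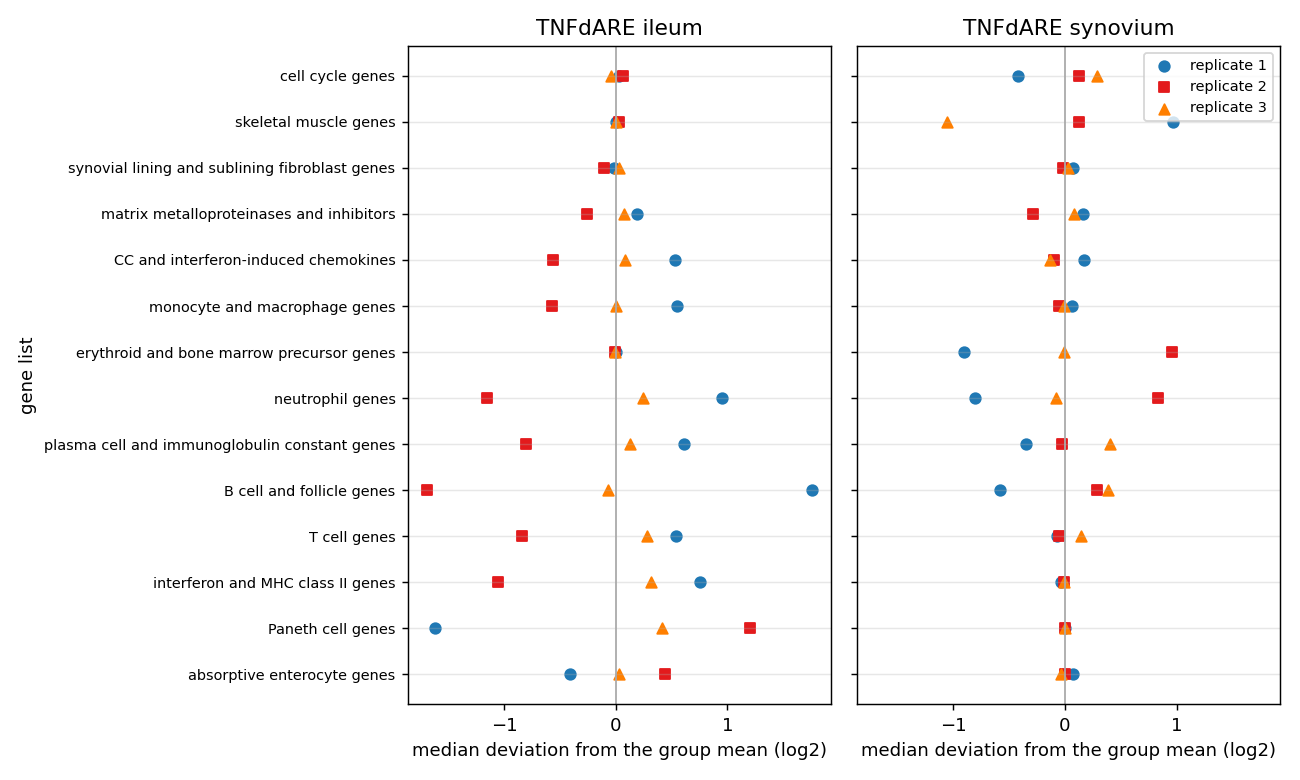
Median log2 deviation of the genes of a list from their group mean, per library, in TNFdARE ileum (left) and TNFdARE synovium (right), with 14 lists in rows. In ileum, replicate 2 (squares) is lowest for the T cell, B cell, plasma cell, neutrophil, macrophage and interferon lists and highest for enterocyte and Paneth cell genes, and in synovium, replicates 1 and 2 lie at opposite ends for marrow and neutrophil genes and replicates 1 and 3 for muscle genes.

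The WT libraries showed how far the tissue difference of the inflamed mice departed from that of healthy tissue. The interaction, the ileum-minus-synovium difference in TNFdARE minus that in WT, was called in 2050 of 16964 genes (12.1%), 1154 above 0 (6.80%) and 896 below 0 (5.28%). The balance moved with scaling, from 56.3% above 0 with TMM factors to 47.6% with RLE factors and 68.8% with library size only, and the median interaction over all genes was 0.08. The immune and mediator lists had 100 of 401 tested genes called, 76 above 0 and 24 below. In 80 of these 100 the tissue difference was smaller in TNFdARE than in WT, and over all called genes that share was 79.9%. The count of called genes was 3506 without TNFdARE ileum replicate 2, 1025 without TNFdARE ileum replicate 3 and 1015 without TNFdARE synovium replicate 3. It was 1219, 1290 and 1182 without WT ileum replicates 1, 2 and 3, and 1171 without WT synovium replicate 3. List medians of the tissue difference in WT and TNFdARE were 1.20 and 1.61 for interferon and MHC class II genes. They were 2.10 and 2.36 for the IL-17 list, -6.91 and -3.0 for neutrophil genes and 0.83 and 2.47 for plasma cell genes. The interferon and IL-17 lists each had 1 interaction called above 0 and 1 below.

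**Figure D4:**
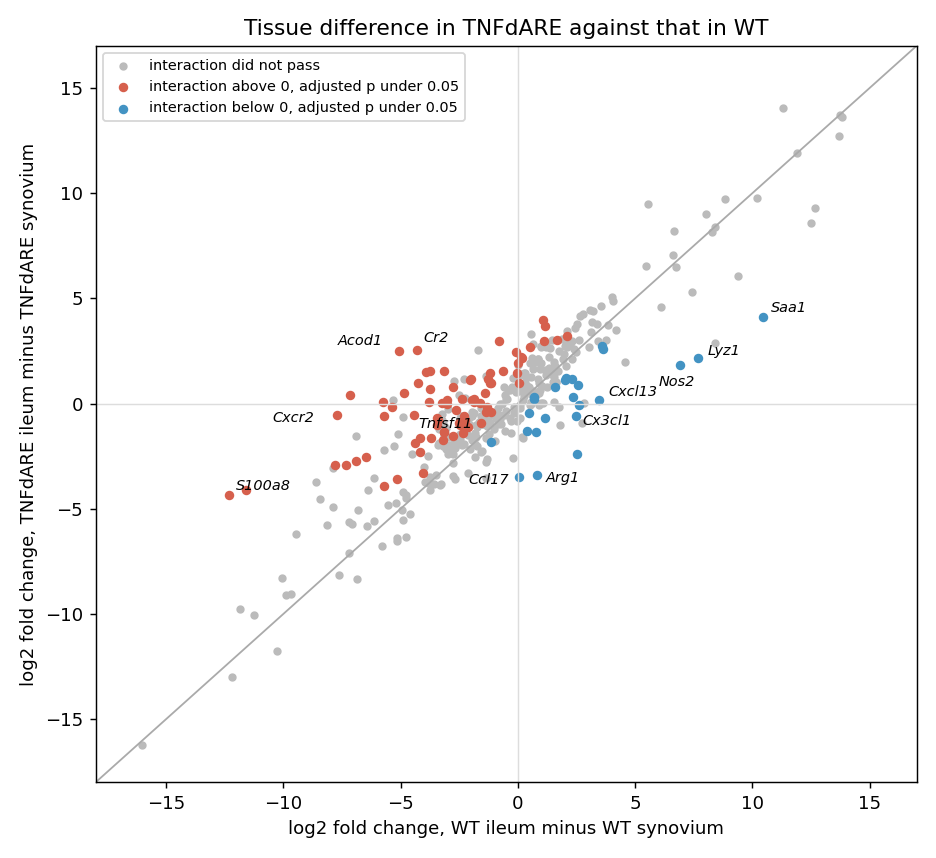
Log2 tissue difference in TNFdARE against the log2 tissue difference in WT for the 401 tested genes of the immune and mediator lists, from the fit of 12 libraries; the grey line marks equal differences, and coloured points passed the interaction test. S100a8 and Cxcr2 lie above the line and Saa1, Nos2 and Lyz1 below it.

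Several genes above 0 had few or no counts in healthy ileum. CPM values here are scaled over all 12 libraries. S100a8 had 4 counts in the WT ileum libraries together and 1403 in TNFdARE ileum, while synovium held 525.5 ± 301 CPM in WT and 635 ± 430 CPM in TNFdARE (SD, n = 3). Its interaction was 7.96 ± 1.69 (adjusted p = 0.0173), a fitted value that rests on those 4 counts and whose call was lost with limma-voom (adjusted p = 0.275). Csf3r stood at 4.36 ± 1.43 CPM in WT ileum, 146 ± 91.9 in TNFdARE ileum, 128 ± 30.6 in WT synovium and 102 ± 29.5 in TNFdARE synovium, an interaction of 5.40 ± 0.68 (adjusted p = 0.00194). Neutrophil genes had 9 of 18 interactions called above 0 and 0 below, and the count above 0 was 5 without WT ileum replicate 3. Tnfsf11 stood at 0.934 ± 0.641 CPM in WT ileum and 11.5 ± 5.23 in TNFdARE ileum, with 13.2 ± 1.58 and 11.1 ± 3.83 CPM in synovium (3.86 ± 0.69, adjusted p = 0.00842).

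Nos2 and Cx3cl1, with interactions below 0, were low in healthy synovium. Nos2 stood at 545 ± 263 CPM in WT ileum and 599 ± 137 in TNFdARE ileum, against 4.49 ± 1.38 CPM in WT synovium and 166 ± 44.4 in TNFdARE synovium, an interaction of -5.08 ± 0.58 (adjusted p = 0.00136). Cx3cl1 stood at 132 ± 0.437 and 116 ± 15.1 CPM in WT and TNFdARE ileum and at 21.5 ± 2.14 and 123 ± 18.2 CPM in synovium (-2.70 ± 0.18, adjusted p = 0.000206). Saa1 stood at 420.1 ± 206 CPM in WT ileum and 130 ± 53.0 in TNFdARE ileum, 0.285 ± 0.161 in WT synovium and 7.59 ± 3.74 in TNFdARE synovium (-6.37 ± 0.91, adjusted p = 0.00328), a call lost with limma-voom (adjusted p = 0.0714). Tnfrsf11b, with an interaction above 0, stood at 81.2 ± 12.1 CPM in WT synovium and 34.1 ± 7.67 in TNFdARE synovium, against 9.08 ± 1.65 and 13.4 ± 1.93 CPM in ileum (interaction 1.82 ± 0.27, adjusted p = 0.00328).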

How the data were processed

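Poly-A RNA of 12 libraries, 3 per group, was made with the TruSeq Stranded mRNA kit and sequenced as single reads of 100 cycles on an Illumina NovaSeq, per the labels' protocols. Bowtie2 2.3.3.1, cutadapt 1.15 and the build GRCm38 are listed in the submitters' processing notes, and the tool that counted reads is not given in the sources used here. Deposited values were whole-number counts per gene, not normalized, and 98.7% of identifiers matched GENCODE M21 for names and positions. A deposited FPKM table was not used. Genes were tested with edgeR 4.0.16 (quasi-likelihood test, TMM factors, filterByExpr, Benjamini-Hochberg adjustment, R 4.3.3) over the 6 TNFdARE libraries. The interaction was fitted over all 12 libraries. Alternatives were RLE factors, library size only, no filter, DESeq2 1.42.0, limma-voom (limma 3.58.1), a replicate block, each library left out, all 12 libraries in the tissue fit, a GC trend removed, and muscle and abundant genes left out of the factors. Scripts were tested on simulated data. Intervals for ratios of counts cover counting error only.

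The comparison, its gene lists and its named genes were chosen with earlier results of these data known. The naming rule took a panel of mediators, from each of 42 lists (640 symbols) the called member with the largest change in each direction and the most abundant member not called, the 5 most abundant genes at least 4-fold higher in each tissue, and the 8 immune or mediator genes with the largest interaction in each direction. Selected genes needed a mean log2 CPM of at least 1, apart from the panel and the members not called. Ratios of counts were compared with exact two-sided permutation tests.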

Additional observations from a re-analysis of the deposited data

Results flagged for a closer look

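The tissue difference itself differed between TNFdARE and WT mice, by edgeR's interaction term, for 1154 genes above 0 and 896 below 0. Of the immune and mediator genes, those with the largest interactions are given here on the log2 scale, with WT ileum counts where these were near 0, since such a fitted value rests on few counts.

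Neutrophil genes above 0 were S100a8 at 7.96 (4 counts in the 3 WT ileum libraries), S100a9 at 7.45 (11 counts) and Cxcr2 at 7.16 (7 counts). These 3 calls were lost with limma-voom, at adjusted p 0.275, 0.241 and 0.103, and that of S100a8 also with no filter (0.0513). Il1f9, encoding the epithelial cytokine IL-36 gamma, stood at 7.55 (1 count). Acod1 stood at 7.57 (2 counts, adjusted p = 0.037 in edgeR), and its call was lost without TNFdARE ileum replicate 3 or any single WT ileum, TNFdARE synovium or WT synovium library, with adjusted p from 0.0541 to 0.0874. The Acod1 call was also lost with limma-voom (0.404) and with no filter (0.1).

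Genes of B cells above 0 were Cr2 at 6.88 (10 counts), Ms4a1 at 5.81 (24 counts) and the IgG2b constant gene Ighg2b at 5.42 (618 counts). All 3 calls were lost with limma-voom, at adjusted p 0.0688, 0.156 and 0.119. Those of Ms4a1 and Ighg2b were also lost with no filter (0.0753 and 0.0814), and that of Ms4a1 with a replicate block (0.0528). The Ms4a1 call was lost without any 1 WT ileum library, TNFdARE synovium replicate 1 or 3 or WT synovium replicate 3, with adjusted p from 0.0537 to 0.0663. The Ighg2b call was lost without TNFdARE ileum replicate 3, any 1 WT ileum library, TNFdARE synovium replicate 1 or 2 or WT synovium replicate 3, with adjusted p from 0.0526 to 0.0679.

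Genes below 0 were Saa1 at -6.37, Lyz1 at -5.54, Nos2 at -5.08, Arg1 at -4.21, Ccl17 at -3.55, Cxcl13 at -3.30, Cx3cl1 at -2.70 and Trdc at -2.14. With limma-voom the calls of Saa1, Arg1, Ccl17 and Cxcl13 were lost, at adjusted p 0.0714, 0.0644, 0.0827 and 0.131. The Ccl17 call was also lost with no filter (0.0818) and with a replicate block within each tissue (0.0585). The Ccl17 call was lost without WT ileum replicate 1 or 3, any 1 TNFdARE synovium library or WT synovium replicate 1 or 2, with adjusted p from 0.0622 to 0.123. The Cxcl13 call was lost without TNFdARE ileum replicate 3, TNFdARE synovium replicate 3 or WT synovium replicate 2, with adjusted p from 0.052 to 0.0539. The Trdc call was lost without TNFdARE ileum replicate 3, WT ileum replicate 1, TNFdARE synovium replicate 1 or 3 or WT synovium replicate 2 or 3, with adjusted p from 0.0502 to 0.0653. The calls of Nos2, Cx3cl1 and Lyz1 held in every alternative run, and the reads of Lyz1 may be shared with Lyz2.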

How the results depend on the processing

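Over all alternatives, 8582 to 11311 genes differed between the inflamed tissues against 10025 with edgeR and TMM. Of 72 genes named for this difference, 51 kept their direction and their side of the threshold in every alternative run, and 9 turned direction in at least 1. None of these 9 was called with edgeR and TMM. Leaving out single libraries gave log2 ranges from -0.045 to 0.871 for Csf3r, -0.245 to 0.015 for Cx3cl1, -0.455 to 0.453 for Cxcl13, -0.248 to 0.235 for Cxcl16, -0.201 to 0.593 for Cxcl5, -1.629 to 0.589 for Ms4a1, -0.773 to 0.466 for Saa3, -0.049 to 0.934 for Tnf and -0.232 to 0.345 for Tnfsf11. The Tnf call appeared only without ileum replicate 2. Other settings that turned a direction were library size only (Ms4a1 -0.0, Tnfsf11 -0.015), limma-voom (Cxcl13 -0.006, Ms4a1 -0.974, Tnfsf11 -0.032), all 12 libraries (Cxcl16 0.007, Saa3 0.043), the GC trend removed (Cx3cl1 0.06, Cxcl16 0.001, Ms4a1 -0.01), and muscle and abundant genes left out of the factors (Ms4a1 -0.005, Tnfsf11 -0.001). The cause was not tested.

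The interaction count of 2050 was 3193 with DESeq2 and 1015 to 3506 without single libraries. Interactions above 0 numbered 752 with limma-voom and 484 to 1692 without single libraries. Interactions below 0 numbered 1612 with DESeq2 and 472 to 1814 without single libraries. The cause was not tested.

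Between ileum and synovium, libraries with equal replicate numbers had r = -0.118, -0.023 and 0.16 over 10630 genes, and unequal numbers had r from -0.145 to 0.155. Correlations between unlike tissues cannot show whether a mouse gave both. With the replicate block 9302 genes differed between the tissues and 1955 had an interaction. The block turned Cxcl13 (-0.026), Ms4a1 (-0.813) and Tnfsf11 (-0.043), and moved Foxp3, Lcn2, Lyz1 (adjusted p 0.062, 0.0817 and 0.0674 in edgeR) and the Ms4a1 interaction (0.0528) out of the calls and Il6 (0.0285) into them. Within a tissue, equal numbers of TNFdARE and WT had r from 0.092 to 0.442, and every library correlated best with its own number except replicate 3 of TNFdARE ileum and of TNFdARE synovium. A block within each tissue, chosen after seeing the data, gave 2620 interactions and ended the Ccl17 call (adjusted p = 0.0585).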
